A study of Mus musculus with 7 samples.

Results

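The genes described here are 51 genes of the machinery by which the kinase complex mTORC1 reads amino acids at the lysosome, together with the subunits of the lysosomal proton pump, the v-ATPase. They were chosen by gene symbol from a list drawn up by function, with no measured value in the rule, and all 51 were found among the 13280 genes of the deposited RNA-seq table. All 51 had enough reads to be among the 11134 genes tested. The members fall into 12 groups by role, from the mTOR complexes through the amino acid sensors, the GATOR, Rag and Ragulator complexes and the amino acid transporters to the v-ATPase.

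RNA was sequenced from muscle stem cells (MuSCs), the resident stem cells of skeletal muscle, sorted by flow cytometry from uninjured hindlimb muscle 3 days after TAM (tamoxifen); the mice were Gli1-CreERT2; R26-tdT. The label gives the strain as C57BL/6, while the methods of the study describe a mixed background, mice of both sexes and an age of 8 to 12 weeks. Gli1+ MuSCs (4 libraries) were the tdT+ cells, in which the Cre driven by the Gli1 gene, a transcription factor of Hedgehog signalling, had switched on the red reporter tdT. Gli1- MuSCs (3 libraries) were the tdT- cells of the same genotype, treatment and gate, so that both groups carry the Cre and the reporter and both received TAM. A cell in which Cre did not recombine the reporter is sorted as Gli1- whatever its Gli1 expression. The sources used here do not say how many mice stand behind each library, and p-values therefore measure the spread between libraries. Among other questions, the study examined mTOR signalling in Gli1+ MuSCs, and the comparison below asks how the transcripts of the amino acid and lysosome branch of that pathway differed.

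mTORC1 is a kinase complex that promotes protein synthesis and cell growth when nutrients and growth factors are at hand. Amino acids bring it to the lysosome through the Rag GTPases, which are anchored by Ragulator and switched by the GATOR complexes, and there it is turned on by the small GTPase Rheb. The v-ATPase acidifies the lysosome and also takes part in amino acid signalling to Ragulator. In muscle stem cells, mTORC1 activity is known for its part in the shift from deep quiescence to the alert state that precedes division. Transcript levels do not measure the activity of the complex.

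Many genes of the v-ATPase and the lysosome are known targets of the TFEB family of transcription factors, which mTORC1 keeps out of the nucleus and which bind the motif CACGTG. Promoters of 300 bases (250 before and 50 after the start of the gene, RefSeq, GRCm38.p6) were at hand for 42 of the 51 members. CACGTG, which reads the same on both strands, was found in 9 of the 42 (21.4%), against 12.1% of the 8719 tested genes with a promoter and 8.09% of all 27025. The 9 windows are printed because they place the motif in members of several complexes. Each has 12 bases on either side of the occurrence nearest the gene's start, 5′ to 3′ on the gene's strand, with the motif in capitals.
Rheb, chr5:24842440-24842469, minus strand: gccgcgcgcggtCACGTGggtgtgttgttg
Rragb, chrX:153139943-153139972, plus strand: acggcaggttccCACGTGatcctggcctgc
Rragc, chr4:123917309-123917338, plus strand: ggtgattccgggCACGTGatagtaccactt
Lamtor1, chr7:101905757-101905786, plus strand: ctgccttcctatCACGTGccgcgggtccgc
Lamtor4, chr5:138255366-138255395, plus strand: tgaacagcttttCACGTGtaaaccaaacca
Fnip1, chr11:54438092-54438121, plus strand: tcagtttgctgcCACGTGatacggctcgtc
Atp6v0b, chr4:117887330-117887359, minus strand: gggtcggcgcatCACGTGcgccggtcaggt
Atp6v0d1, chr8:105566050-105566079, minus strand: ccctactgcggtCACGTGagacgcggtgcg
Atp6v1a, chr16:44139373-44139402, minus strand: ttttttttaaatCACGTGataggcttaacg
The motif began 3 bases before the start in Rragb and Atp6v0d1 and 131 bases before it in Atp6v1a. The longer form TCACGTGA, which contains the shorter one, was present in Atp6v0d1 and Atp6v1a alone among the members (4.76% of 42), against 2.37% of tested genes with a promoter. None of the 9 genes reached an unadjusted p under 0.05 between Gli1+ and Gli1- MuSCs in edgeR. Of all genes tested, 1.53% did so higher and 0.611% lower in Gli1+ MuSCs. With shares this low, a lack of calls among 9 genes does not set them apart. The smallest p among the 9 was 0.112 (edgeR, unadjusted), for Atp6v1a. A match of letters is a description of the promoter and not evidence of binding.

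The libraries held 10595181 to 13781283 reads in Gli1+ MuSCs and 12808512 to 19662721 reads in Gli1- MuSCs, and the members took 0.225% to 0.251% of the reads of Gli1+ MuSCs and 0.198% to 0.296% of those of Gli1- MuSCs. Each library was made from 1 ng of RNA, and the libraries differed in how many genes had no read at all. Of the genes tested, 12.99% to 24.9% had no read in a Gli1+ library, while the shares in Gli1- replicates 1, 2 and 3 were 7.14%, 51.5% and 39.5%. Gli1- replicates 2 and 3 thus stood apart from the other 5 libraries, and the values of the role groups and members most affected are also given without them, an alternative chosen after seeing the data. That alternative leaves Gli1- replicate 1 alone in its group. Gli1 itself had 50.3, 30.7, 7.28 and 18.3 CPM (read counts relative to the TMM-scaled library size) in Gli1+ MuSCs and 11.6, 0 and 0 CPM in Gli1- MuSCs, so that its groups overlapped. Pax7, the defining transcription factor of MuSCs, was read in all 7 libraries, at 407 ± 120 CPM in Gli1+ MuSCs and 347 ± 173 CPM in Gli1- MuSCs (SD, n = 4 and 3). The summed level of 14 markers of fibro-adipogenic progenitors ranged from 2990 to 11230 CPM in Gli1+ MuSCs and from 3142 to 5837 CPM in Gli1- MuSCs, and that of 7 endothelial markers from 121 to 1036 CPM in Gli1+ MuSCs and from 131 to 913 CPM in Gli1- MuSCs. The sum ranged from 25.99 to 1167 CPM in Gli1+ MuSCs and from 20.02 to 699 CPM in Gli1- MuSCs for 6 tenocyte markers, and from 394 to 2600 CPM in Gli1+ MuSCs and from 311 to 1360 CPM in Gli1- MuSCs for 7 pericyte and smooth muscle markers. For 9 macrophage and immune markers it ranged from 0.185 to 363 CPM in Gli1+ MuSCs and from 11.8 to 220 CPM in Gli1- MuSCs; of these, Ptprc (CD45) was read in Gli1+ replicate 3 alone, while Cd74 and Lyz2 were read in several libraries of both groups. The endothelial, tenocyte, pericyte and immune sums were highest in Gli1+ replicate 3 and, among Gli1- libraries, in replicate 2, and the part of these cells in the members' values was not tested.

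No member passed the test at an adjusted p under 0.05, in the quasi-likelihood test of edgeR adjusted over all genes tested by the Benjamini-Hochberg method, and neither did any other gene (0% of 11134). The adjusted p of every member rounded to 1.00. At an unadjusted p under 0.05, 0 members were higher in Gli1+ MuSCs, against 1.53% of all genes tested, and 2 were lower (3.92% of 51), against 0.611% of all genes tested. The 2 were Atp6ap1, an accessory subunit of the v-ATPase, and Akt1s1, which encodes PRAS40, an inhibitory partner of mTORC1. DESeq2, run as an alternative, called 0.628% of its 10191 genes with an adjusted p higher in Gli1+ MuSCs, and among the members only Castor1, the cytosolic arginine sensor, with an adjusted p of 0.0410. Limma-voom with quality weights called no member at an adjusted p under 0.05; at an unadjusted p under 0.05 it had 3 higher (5.88% of the members, against 6.49% of all genes tested) and 3 lower (against 0.79%).

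Fitted changes of the members lay around 0 in both directions. The fitted log2 fold change was above 0 for 32 of the 51 and below it for 19, with a median of 0.13, while the median over all genes tested was 0.30 and 65.3% of them lay above 0. These medians moved with the Gli1- libraries used. The members' median was -0.10 without Gli1- replicate 2 (0.16 for all genes) and 0.33 without Gli1- replicate 3 (0.28 for all genes). Without both it was -0.17 (-0.04 for all genes), when 22 members lay above 0 and 29 below. The 22 members with a read in every library had a median of 0.04 and a range of -1.36 to 1.09 (12 above and 10 below 0), beside a median of 0.05 over the 3743 tested genes read in every library. The other 29 had a median of 0.38, and their standard errors, 1.39 to 3.75 on the log2 scale, were wide enough that no direction could be read from most of them.

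**Figure D1:**
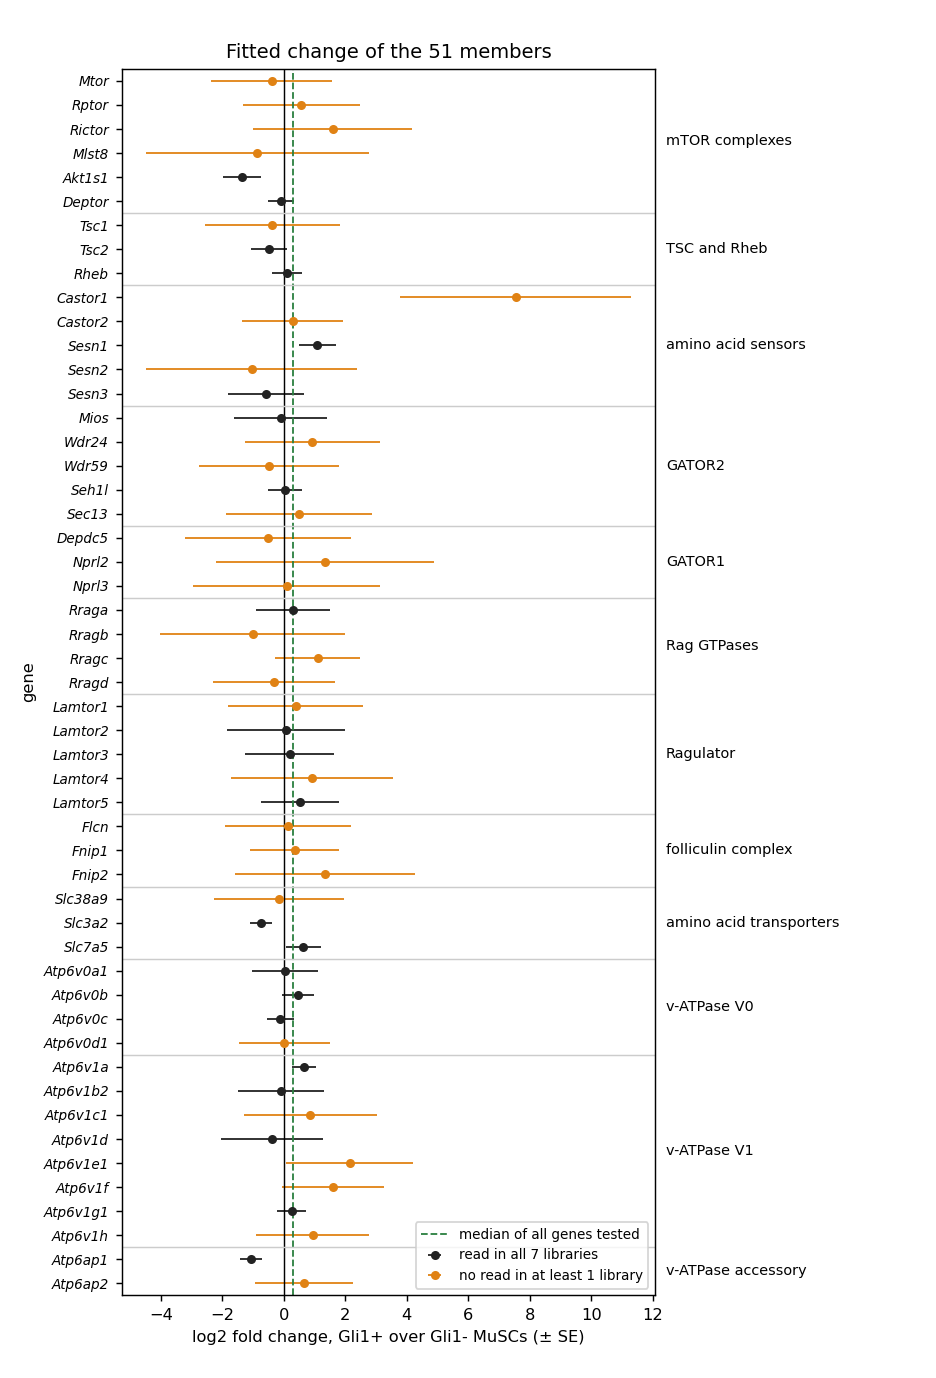
Fitted log2 fold change of the 51 members, Gli1+ over Gli1- MuSCs, with bars of 1 standard error, grouped by role down the page. Black points are the 22 members read in all 7 libraries, orange points are the 29 with no read in at least 1 library, and the dashed line is the median of all genes tested (0.30). Atp6ap1 (-1.07), Akt1s1 (-1.36) and Slc3a2 (-0.73) lie left of 0 by more than 2 standard errors. Castor1 (7.54) lies far to the right with the widest bar, also by just over 2 standard errors. No member passed at an adjusted p under 0.05 in this edgeR fit.

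The libraries differed widely in how many of these genes had no read. The number of the 51 members with no read was 3, 4, 8 and 5 in Gli1+ replicates 1 to 4 and 1, 22 and 10 in Gli1- replicates 1 to 3. In every library this share was below that of all genes tested, for example 43.1% of members against 51.5% of genes tested in Gli1- replicate 2. No member lacked reads in all libraries of a group. In 14 members at least 1 Gli1+ library was at 0, and in 25 members at least 1 Gli1- library was.

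**Figure D2:**
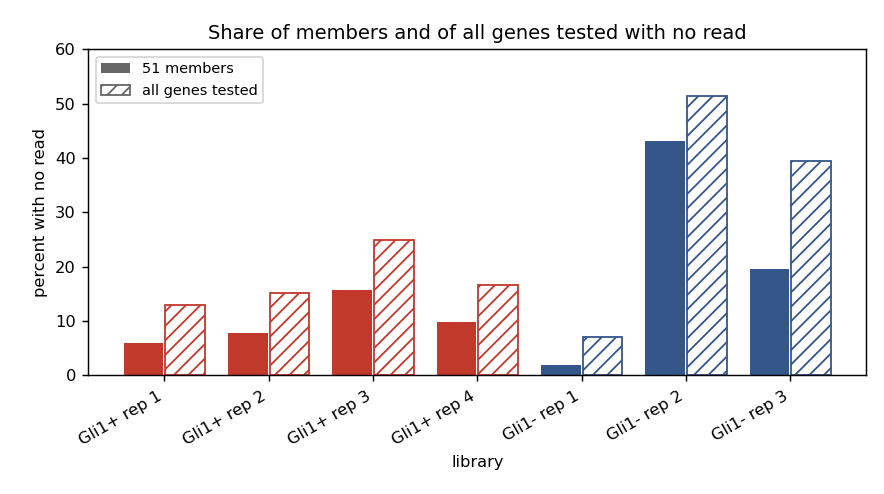
Share of the 51 members (filled bars) and of all 11134 genes tested (hatched bars) with no read in each library, in percent; Gli1+ libraries in red and Gli1- libraries in blue. Gli1- replicate 2 has the highest shares (43.1% and 51.5%) and Gli1- replicate 1 the lowest (1.96% and 7.14%).

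The 2 groups did not overlap for 3 members. Castor1 and Atp6v1e1 were higher in every Gli1+ library (3.92% of the members, against 2.87% of all genes tested), and Atp6ap1 was lower in every Gli1+ library (1.96% of the members, against 0.934% of all genes tested).

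**Figure D3:**
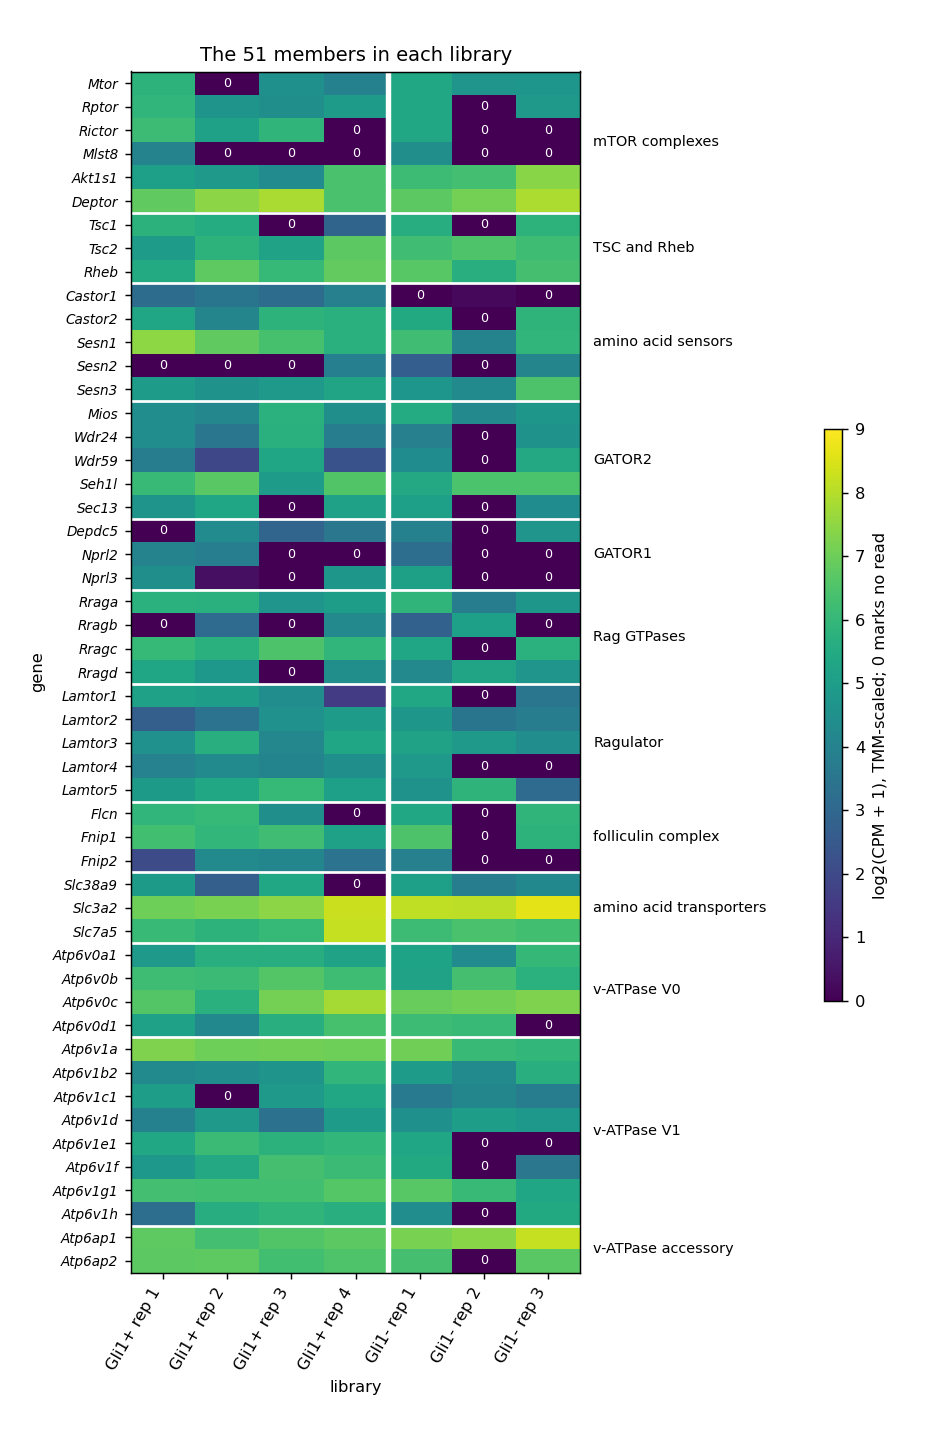
Level of each member in each library as log2(CPM + 1), with Gli1+ libraries left of the white line and Gli1- libraries right of it, grouped by role; cells marked 0 had no read. The column of Gli1- replicate 2 holds 22 such cells, and the Castor1 row is read in all 4 Gli1+ libraries and at or near 0 in all 3 Gli1- libraries.

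Among the amino acid sensors, which release or restrain GATOR2 according to the arginine and leucine in the cell, Castor1 had the largest fitted difference between the groups. Castor1 (chr11:4218225-4222409, GRCm38, plus strand) had 8.15, 10.3, 8.005 and 14 CPM in Gli1+ MuSCs, against 0, 0.137 and 0 CPM in Gli1- MuSCs. These were 88, 142, 88 and 139 reads in Gli1+ MuSCs and 0, 2 and 0 reads in Gli1- MuSCs. All 4 Gli1+ libraries were thus at a low and even level, and the Gli1- libraries were at or next to 0. A count of 0 allows up to 3 reads, which is 0.162 CPM in Gli1- replicate 1 and 0.191 CPM in Gli1- replicate 3. Over the summed reads (457 in Gli1+ and 2 in Gli1- MuSCs) the ratio was 245, with an exact 95% counting interval of 67.5 to 2031, which covers counting error only. The fitted log2 fold change was 7.54 ± 3.75 (SE) with an unadjusted p of 0.0669, and 406 tested genes had a smaller p. The Castor1 zero in Gli1- replicate 1 stood in the library with the fewest genes at 0. Of the 6607 tested genes read in all 4 Gli1+ libraries, 59 had no read there, and Castor1 was the only member among them. That count starts from genes read in every Gli1+ library, and the reverse count was not made, so it only describes the zero. Castor1 itself passed the filter of 5 reads in 2 libraries through its Gli1+ libraries alone. Without Gli1- replicates 2 and 3, only Gli1- replicate 1 was left in its group, with no read of the gene. The Castor1 log2 fold change of 10.02 ± 5.48 from that fit depends on the prior count. No other annotated gene overlaps its exons, and none of its stretches of 31 bases occurs in another gene's transcripts. In bulk samples, fewer cells with a transcript and less transcript per cell cannot be told apart.

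Castor2, the paralogue that forms dimers with Castor1, did not follow it. Its level was 39.4, 16.2, 56.0 and 51.5 CPM in Gli1+ MuSCs and 43.3, 0 and 56.4 CPM in Gli1- MuSCs, and apart from the 0 in Gli1- replicate 2 the groups covered the same range. Per kilobase of exon, Castor2 and Castor1 averaged 5.39 and 6.43 CPM in Gli1+ MuSCs, and Castor2 was above Castor1 in 2 of those 4 libraries. In Gli1- MuSCs the per-kilobase averages were 4.40 CPM for Castor2 and 0.0291 CPM for Castor1.

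The sestrins, stress-inducible proteins of which Sestrin2 is the best known leucine sensor, were read unevenly. Sesn1 had 177, 111, 82.1 and 52.1 CPM in Gli1+ MuSCs, against 73.8, 15.5 and 59.2 CPM in Gli1- MuSCs. Its highest libraries were Gli1+ and its lowest Gli1-, but Gli1+ replicate 4 lay below 2 of the Gli1- libraries, and the log2 fold change of 1.09 ± 0.61 (SE) had an unadjusted p of 0.0981. Leaving out Gli1- replicate 2 gave 0.67, and 0.52 came from leaving out Gli1- replicate 3 as well; the fit that lacked Gli1+ replicate 1 gave 0.72. Sesn1 was also the most abundant sensor, above Sesn3 per kilobase in 7 of 7 libraries (26.5 against 1.94 CPM per kb on average in Gli1+ MuSCs, and 12.4 against 2.88 CPM per kb in Gli1- MuSCs). Sesn2 had 0, 0, 0 and 13.8 CPM in Gli1+ MuSCs and 5.41, 0 and 16.0 CPM in Gli1- MuSCs, so that no read was found in Gli1+ replicates 1 to 3 or in Gli1- replicate 2, and the remaining values overlapped. Sesn3 ranged from 23.8 to 37.1 CPM in Gli1+ MuSCs and from 18.8 to 87.6 CPM in Gli1- MuSCs.

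The mTOR complexes showed no common direction, with 2 of 6 members above 0, 4 below and a median log2 fold change of -0.24. Mtor, the kinase itself, had 55.4, 0, 21.6 and 14.4 CPM in Gli1+ MuSCs and 40.5, 24.7 and 25.2 CPM in Gli1- MuSCs. The Gli1+ libraries spread from none to the highest value of all, with the Gli1- libraries inside that range (log2 fold change -0.40 ± 1.96, unadjusted p = 0.842). Rptor, whose product Raptor defines mTORC1 and binds its substrates, had 59.9, 24.2, 21.5 and 29.9 CPM in Gli1+ MuSCs and 40.9, 0 and 27.8 CPM in Gli1- MuSCs, and its groups overlapped likewise. Rictor, which defines mTORC2, was at 0 in 1 Gli1+ library and in 2 Gli1- libraries, and Mlst8, a subunit shared by both complexes, was read in 1 library of each group. Exons of Mlst8 share 18.7% of their 31-base stretches with the overlapping gene Bricd5, so that its reads are uncertain.

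Akt1s1 stood out among the mTOR partners and was also the most abundant of the 6 per kilobase, averaged over the 7 libraries. It had 32.9, 28.1, 19.4 and 84.7 CPM in Gli1+ MuSCs, against 71.0, 77.6 and 169.7 CPM in Gli1- MuSCs. The Gli1+ libraries 1 to 3 were below every Gli1- library, while Gli1+ replicate 4 was above 2 of them. The log2 fold change was -1.36 ± 0.62 (SE), with an unadjusted p of 0.0490. In edgeR it was -0.85 ± 0.75 (unadjusted p = 0.288) without Gli1- replicate 3 and -1.99 ± 0.61 (unadjusted p = 0.00851) without Gli1+ replicate 4, and leaving out Gli1+ replicate 1, 2 or 3 or Gli1- replicate 1 also took p above 0.05 (0.0519 to 0.0967). Without Gli1- replicates 2 and 3 the edgeR estimate was -0.78 ± 0.84 (unadjusted p = 0.378). Deptor, which binds and inhibits both mTOR complexes, averaged 151 ± 66.2 CPM in Gli1+ MuSCs and 159.8 ± 68.1 CPM in Gli1- MuSCs (SD, n = 4 and 3), a log2 difference of -0.09 ± 0.43.

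The TSC complex, which turns Rheb off, and Rheb differed by less than their standard errors. Rheb had 44.2, 107, 64.1 and 114 CPM in Gli1+ MuSCs and 99.6, 50.02 and 79.9 CPM in Gli1- MuSCs, with the groups fully mixed (log2 fold change 0.11 ± 0.50). Tsc2, the subunit that stimulates GTP hydrolysis by Rheb, averaged 56.9 ± 34.9 CPM in Gli1+ MuSCs and 79.7 ± 10.5 CPM in Gli1- MuSCs (SD, n = 4 and 3). Tsc2 overlaps Pkd1 on the other strand, 9.72% of its 31-base stretches occur in Pkd1 or other genes, and whether counting used strand was not given in the sources used here. Tsc1, which stabilises Tsc2, was at 0 in 1 library of each group.

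GATOR2, which counteracts GATOR1, had 3 of 5 members above 0 and a median log2 fold change of 0.04, or -0.41 without Gli1- replicates 2 and 3. Seh1l, a subunit that also belongs to the nuclear pore, was its most abundant member per kilobase. Seh1l had 67.8, 102, 30.7 and 92.5 CPM in Gli1+ MuSCs and 42.4, 85.5 and 85.5 CPM in Gli1- MuSCs, which is the same range. The 3 GATOR1 genes, whose product complex turns RagA and RagB off, were low throughout. Nprl2, the highest of them per kilobase, had 15.4, 13.5, 0 and 0 CPM in Gli1+ MuSCs and 8.55, 0 and 0 CPM in Gli1- MuSCs. In Gli1- replicate 2 none of the 3 GATOR1 genes had a read, and 2 of the 3 had none in Gli1+ replicate 3, and the standard errors of the 3 log2 fold changes, 2.69 to 3.56, exceeded the changes themselves.

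The Rag GTPases work as pairs of RagA or RagB with RagC or RagD. In each pair of paralogues the same gene led per kilobase in 6 of 7 libraries: Rraga over Rragb (24.6 against 2.84 CPM per kb in Gli1+ MuSCs, 20.02 against 5.75 CPM per kb in Gli1- MuSCs), and Rragc over Rragd (19.8 against 4.14 CPM per kb in Gli1+ MuSCs, 9.21 against 5.15 CPM per kb in Gli1- MuSCs). The exception was Gli1- replicate 2 both times. Rraga had 52.4, 50.8, 25.0 and 31.2 CPM in Gli1+ MuSCs and 57.9, 12.9 and 26.3 CPM in Gli1- MuSCs, and its groups overlapped. Rragc had 65.0, 50.97, 88.8 and 59.4 CPM in Gli1+ MuSCs and 39.3, 0 and 53.0 CPM in Gli1- MuSCs. Its Gli1+ libraries lay higher but for 1 overlap, and the log2 fold change of 1.10 ± 1.39 did not exceed its standard error.

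All 5 Ragulator genes, which encode the lysosomal scaffold of the Rags, had a fitted log2 fold change above 0 (0.07 to 0.92), with a median of 0.38 beside 0.30 for all genes tested and no unadjusted p under 0.683. The median was 0.19 without Gli1- replicate 2 and 0.08 without Gli1- replicate 3. Without both, which leaves Gli1- replicate 1 alone in its group, it was -0.61. Lamtor5, the most abundant per kilobase, had 29.1, 39.7, 64.9 and 33.1 CPM in Gli1+ MuSCs and 22.8, 56.1 and 7.82 CPM in Gli1- MuSCs. Its groups overlapped, and 18.6% of its 31-base stretches occur in other genes, so that its reads are uncertain. That share was 30.2% for Lamtor1, whose log2 fold change of 0.38 was the Ragulator median. Lamtor4 was the most even of the 5 in Gli1+ MuSCs, at 17.6 ± 2.88 CPM (SD, n = 4), and had 27.9, 0 and 0 CPM in Gli1- MuSCs.

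The folliculin complex, which acts on RagC and RagD and so governs TFEB, had 3 of 3 members above 0 and a median log2 fold change of 0.36, which was -0.24 without Gli1- replicates 2 and 3. Flcn had 59.4, 64.1, 21.1 and 0 CPM in Gli1+ MuSCs and 40.6, 0 and 58.2 CPM in Gli1- MuSCs, with 1 library of each group at 0. Its partners Fnip1 and Fnip2 were read in all 4 Gli1+ libraries and had no read in Gli1- replicate 2, and Fnip2 had none in Gli1- replicate 3 either. Fnip1 averaged 61.7 ± 19.5 CPM in Gli1+ MuSCs and 48.1 ± 45.0 CPM in Gli1- MuSCs (SD, n = 4 and 3).

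Of the amino acid transporters, Slc3a2 and Slc7a5 encode the heavy and the light chain of the leucine carrier LAT1 at the cell surface, and Slc38a9 is an arginine sensor of the lysosomal membrane. Averaged over the 7 libraries, Slc3a2 was the most abundant of all 51 members per kilobase and lay above 95.8% of tested genes in that measure. Slc3a2 had 129.7, 143, 173 and 310.4 CPM in Gli1+ MuSCs, against 280.0, 273 and 391 CPM in Gli1- MuSCs. Gli1+ libraries 1 to 3 were below all Gli1- libraries, and Gli1+ replicate 4 was among them. The log2 fold change was -0.73 ± 0.36 (SE) with an unadjusted p of 0.0632. Scaling to library totals alone gave -0.89 ± 0.34 (edgeR, unadjusted p = 0.0201) with groups that did not overlap. Leaving out Gli1+ replicate 4 gave -1.09 ± 0.30 (edgeR, unadjusted p = 0.00433), and the adjusted p was 1.00 both times. The Slc3a2 change was weaker, at -0.55 ± 0.41 (edgeR, unadjusted p = 0.216), without Gli1- replicate 3. It was -0.59 ± 0.39 (edgeR, unadjusted p = 0.154) without Gli1+ replicate 1. Without Gli1- replicates 2 and 3, which leaves Gli1- replicate 1 alone in its group, it was -0.57 ± 0.57. Over all 17 alternatives it ran from -1.09 to -0.55.

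Slc7a5 had a fitted change above 0, but only with Gli1+ replicate 4 in the fit. It had 65.2, 56.0, 64.9 and 295 CPM in Gli1+ MuSCs and 71.0, 85.1 and 76.1 CPM in Gli1- MuSCs. Gli1+ replicate 4 was far above the other 6 libraries, and the other 3 Gli1+ libraries were below all Gli1- libraries. The log2 fold change of 0.64 ± 0.58 became -0.33 ± 0.48 without that library (unadjusted p = 0.296 and 0.504). The same library had the highest Slc3a2 and Akt1s1 levels among Gli1+ MuSCs and also the highest summed level of fibro-adipogenic progenitor markers (11230 CPM). Of those markers Col1a1 stood at 1666 CPM and Dcn at 755 CPM there, while Pdgfra and Dpp4 had no read. In Gli1+ replicate 3 these 4 stood at 1066, 850, 42.9 and 15.5 CPM, and most of the single markers were higher than in Gli1+ replicate 4. Col3a1 was higher in Gli1+ replicate 4, at 4131 CPM against 1820 CPM. The summed tenocyte markers stood at 935 CPM in Gli1+ replicate 4 and 1167 CPM in Gli1+ replicate 3. The part of such cells in these values was not tested. Slc38a9 had 29.2, 5.61, 40.7 and 0 CPM in Gli1+ MuSCs and 32.8, 12.99 and 17.3 CPM in Gli1- MuSCs, the Gli1- libraries lying inside the Gli1+ range.

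**Figure D4:**
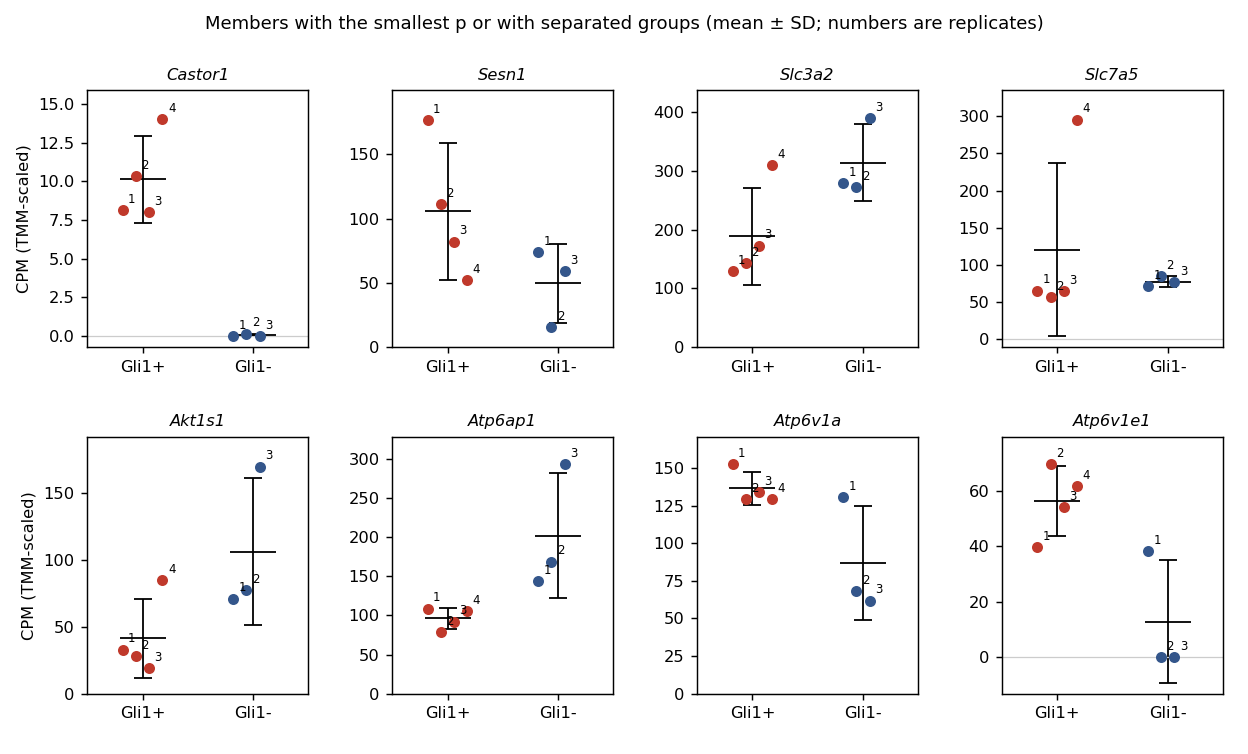
TMM-scaled CPM of 8 members in each library, Gli1+ left and Gli1- right in each panel; points are libraries numbered by replicate, and bars are the mean ± SD (n = 4 and 3). Castor1, Atp6ap1 and Atp6v1e1 separate the groups, and Gli1+ replicate 4 is the high point of Slc7a5 (295 CPM), Slc3a2 (310.4 CPM) and Akt1s1 (84.7 CPM).

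The 14 v-ATPase members had 10 log2 fold changes above 0, 4 below and a median of 0.36, which was 0.11 without Gli1- replicates 2 and 3. Their summed level was 812, 788, 967 and 1143 CPM in Gli1+ MuSCs and 884, 671 and 906 CPM in Gli1- MuSCs, so that the summed transcripts of the pump overlapped between the groups. Only 1 of the 56 values in Gli1+ MuSCs was 0, that of Atp6v1c1 in replicate 2, and Gli1- replicates 2 and 3 had 4 and 2 members at 0.

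Atp6ap1, which encodes Ac45, a subunit that guides assembly and traffic of the pump, had the smallest p of all members. Atp6ap1 (chrX:74297097-74304721, GRCm38, plus strand) had 109, 79.1, 92.2 and 105 CPM in Gli1+ MuSCs, against 144, 169 and 293 CPM in Gli1- MuSCs. The highest Gli1+ library was below the lowest Gli1- library, and the Gli1+ libraries were close together while Gli1- replicate 3 was far above the others. Means were 96.3 ± 13.5 CPM in Gli1+ MuSCs and 202 ± 79.9 CPM in Gli1- MuSCs (SD, n = 4 and 3), and the log2 fold change was -1.07 ± 0.36 (SE) with an unadjusted p of 0.0106 and an adjusted p of 1.00. Only 11 of the 11134 tested genes had a smaller unadjusted p. Without Gli1- replicate 3 the log2 fold change was -0.70 ± 0.34 (edgeR, unadjusted p = 0.0712), and without Gli1- replicates 2 and 3 it was -0.58 ± 0.46 (unadjusted p = 0.243). It was below 0 in all 17 alternatives, from -1.27 to -0.58. These alternatives reuse the same libraries, whose groups did not overlap, so the kept direction is no separate support. The other accessory subunit, Atp6ap2 (the prorenin receptor), had 104, 108, 77.4 and 90.1 CPM in Gli1+ MuSCs and 79.9, 0 and 102 CPM in Gli1- MuSCs, and apart from the 0 its groups overlapped.

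The membrane sector V0, which conducts the protons, showed no resolved difference between the groups. Its median log2 fold change was 0.03 over 4 members, with a range of -0.11 to 0.46. The standard errors ran from 0.45 for Atp6v0c to 1.47 for Atp6v0d1, too wide to read the sector as equal. Atp6v0c, which encodes the proteolipid of the rotor ring, had 94.7, 51.5, 138 and 217 CPM in Gli1+ MuSCs and 120.0, 135 and 152 CPM in Gli1- MuSCs. The Gli1- libraries lay within the wider Gli1+ range, and 11.9% of the 31-base stretches of Atp6v0c occur elsewhere, mostly in its pseudogenes. Atp6v0b, another ring subunit, had 72.7, 69.3, 96.0 and 73.1 CPM in Gli1+ MuSCs and 35.2, 81.2 and 53.1 CPM in Gli1- MuSCs, with 1 Gli1- library above 3 of the Gli1+ libraries and a log2 fold change of 0.46 ± 0.52 (unadjusted p = 0.391), which was 1.14 ± 0.57 (unadjusted p = 0.0801) without Gli1- replicates 2 and 3.

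The cytosolic sector V1, which hydrolyses ATP, had 6 of 8 members above 0 and the highest median of the v-ATPase groups, 0.76. Without Gli1- replicates 2 and 3 this median was 0.20. Atp6v1a, the catalytic subunit, was the steadiest of the 37 members read in all Gli1+ libraries, at 153, 129.6, 134 and 129 CPM, a coefficient of variation of 8.15%. Its values in Gli1- MuSCs were 130.5, 68.2 and 61.9 CPM. Gli1- replicate 1 was level with the Gli1+ libraries and the other Gli1- libraries were below them, and the log2 fold change of 0.65 ± 0.38 (SE, unadjusted p = 0.112) became 0.06 ± 0.45 without those 2 libraries.

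Atp6v1e1, part of the outer stalk, had 39.6, 69.7, 54.3 and 61.7 CPM in Gli1+ MuSCs, against 38.4, 0 and 0 CPM in Gli1- MuSCs. The groups did not overlap, but Gli1- replicate 1 was next to the lowest Gli1+ library and the difference lay in the 2 libraries at 0. Its log2 fold change of 2.14 ± 2.06 (SE, unadjusted p = 0.319) became 0.55 ± 0.63 (unadjusted p = 0.404) without them and 12.47 ± 1.78 (edgeR, unadjusted p = 0.000368, adjusted p = 0.131) without Gli1- replicate 1, where both remaining Gli1- libraries were at 0 and the fitted value depends on the prior count. Atp6v1f, a subunit of the rotor stalk, had 26.9, 41.7, 80.6 and 69.5 CPM in Gli1+ MuSCs and 43.2, 0 and 11 CPM in Gli1- MuSCs, with Gli1- replicate 1 inside the Gli1+ range. Its log2 fold change of 1.60 ± 1.65 was 0.34 ± 0.76 without Gli1- replicates 2 and 3, 1.01 without replicate 2 alone and 3.31 without Gli1- replicate 1. Of the 31-base stretches of Atp6v1f, 18.4% occur in another gene, so that its reads are uncertain. Atp6v1g1, of the outer stalk, had 78.0, 77.1, 75.7 and 97.4 CPM in Gli1+ MuSCs and 101, 66.4 and 39.2 CPM in Gli1- MuSCs, and 24.0% of its 31-base stretches occur in other genes.

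Within the pump, the levels per kilobase of exon spanned from 72.3 ± 9.06 CPM per kb for Atp6v1g1 to 4.22 ± 2.28 CPM per kb for Atp6v1h in Gli1+ MuSCs (SD, n = 4). The first 8 in this order, from Atp6v1g1 to Atp6v1a (22.6 ± 1.84 CPM per kb), did not differ from their neighbours by more than the larger of the 2 SDs. Atp6v1a was above Atp6v1e1 (13.7 ± 3.11 CPM per kb) and Atp6v1e1 above Atp6v0a1 (6.10 ± 1.63 CPM per kb) by more than that spread, and the 5 lowest, from Atp6v0a1 to Atp6v1h, again did not differ from their neighbours beyond it. In Gli1- MuSCs the highest mean was that of Atp6ap1, at 66.7 ± 26.4 CPM per kb (SD, n = 3), against 31.8 ± 4.45 CPM per kb in Gli1+ MuSCs (SD, n = 4), where it was the sixth. For the a-subunit of V0, of which Atp6v0a1 is the member measured here, the paralogue Tcirg1 was higher per kilobase in 7 of 7 libraries (33.5 against 6.10 CPM per kb in Gli1+ MuSCs and 42.3 against 5.97 CPM per kb in Gli1- MuSCs).

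**Figure D5:**
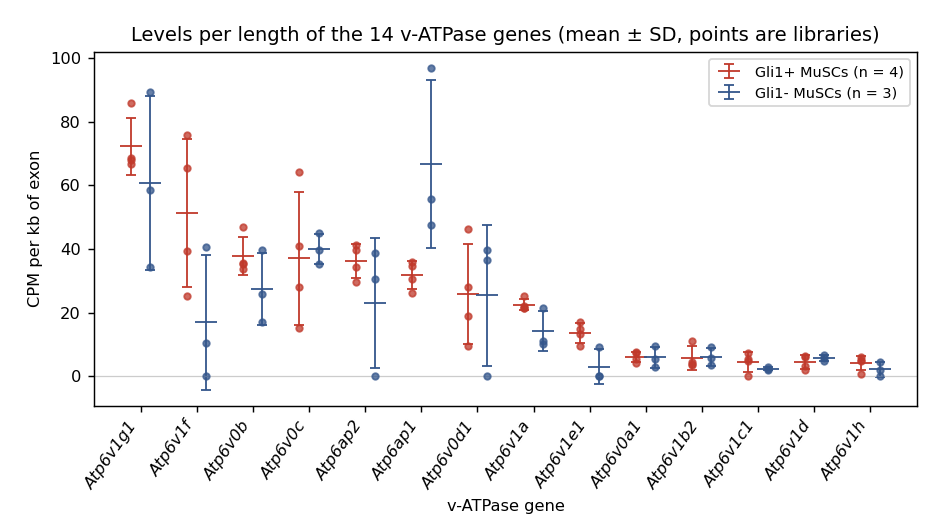
Level per kilobase of exon (CPM per kb) of the 14 v-ATPase members, ordered by their mean in Gli1+ MuSCs; points are libraries, and bars are the mean ± SD in Gli1+ (left, n = 4) and Gli1- MuSCs (right, n = 3). Atp6ap1 is the gene whose Gli1- points (mean 66.7) all lie above its Gli1+ points (mean 31.8).

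As a whole the members were moderately abundant. Their median level over the 7 libraries was 6.77 CPM per kb, against 4.90 CPM per kb for the tested genes, and 32 of the 51 were above that median. The lowest were Depdc5 (0.926 CPM per kb), Fnip2 (1.05 CPM per kb), Mlst8 (1.15 CPM per kb) and Slc38a9 (1.18 CPM per kb).

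Genes elsewhere in the pathway, in 6 further lists, did not pass the test either. Of 123 genes listed, 106 were tested. At an unadjusted p under 0.05, 0 were higher and 0 lower in Gli1+ MuSCs, against 1.53% and 0.611% of all genes tested. Fitted changes lay above 0 for 57 and below it for 49, while 65.3% of all genes tested lay above 0. Eif4ebp2, a translational repressor that mTORC1 phosphorylates, had 69.1, 49.0, 71.0 and 64.6 CPM in Gli1+ MuSCs and 28.02, 19.9 and 39.2 CPM in Gli1- MuSCs. Its groups did not overlap, and the log2 fold change was 1.13 ± 0.79 (unadjusted p = 0.180). Ctsl, the lysosomal protease cathepsin L, averaged 452 ± 32.2 CPM in Gli1+ MuSCs and 648 ± 147 CPM in Gli1- MuSCs (log2 fold change -0.52 ± 0.30, unadjusted p = 0.103), and Lamp1, a major protein of the lysosomal membrane, averaged 309.8 ± 108 CPM in Gli1+ MuSCs and 221 ± 20.01 CPM in Gli1- MuSCs (log2 fold change 0.49 ± 0.34, unadjusted p = 0.176). Slc7a8, another light chain that pairs with the Slc3a2 product, averaged 221 ± 127 CPM in Gli1+ MuSCs and 370 ± 175 CPM in Gli1- MuSCs (log2 fold change -0.74 ± 0.45, unadjusted p = 0.126). Akt1, the kinase that relays growth factor input to TSC, averaged 111 ± 44.7 CPM in Gli1+ MuSCs and 78.3 ± 13.3 CPM in Gli1- MuSCs (log2 fold change 0.50 ± 0.43, unadjusted p = 0.270). The smallest p among the other regulators of the mTOR complexes was 0.334, for the AMPK subunit gene Prkag1.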

How the data were processed

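RNA-seq of 7 libraries was analysed. The authors deposited raw counts per gene, unnormalized, with 14 columns of normalized values per sample that were not used and a second table of their own comparison (fold changes and p-values) that was left out. The methods of the study name STAR, GRCm38, tximport and DESeq2, and CASAVA and HISAT2 2.0.5 stand in the processing notes of the submitters; which aligner made these counts, and the strand setting, could not be settled. Groups and replicate numbers came from the sample titles.

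The 11134 genes that reached 5 reads in 2 or more libraries were tested in R 4.3.3 with edgeR 4.0.16 (quasi-likelihood test, robust, TMM scaling, two-sided, Benjamini-Hochberg adjustment), as 4 Gli1+ over 3 Gli1- libraries. The biological coefficient of variation was 1.76. The standard error is the absolute log2 fold change over the root of F. Levels per kilobase use the exon union of GENCODE vM21. Alternatives were other scalings, filters, DESeq2 1.42.0, limma 3.58.1, a replicate block and each library left out. The fit was run on simulated counts at the spread of these libraries and at a lower spread. Recovery of changed genes was required only at the lower spread, so this does not measure power in these libraries.

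The members, role groups, further lists and named genes were chosen with earlier results of these data known. Values per library are given for the 10 members with the smallest p, those whose groups do not overlap, the highest per kilobase of each role group, and Mtor, Rptor, Slc38a9 and Slc7a5. Of each further list the 2 smallest p could be named. Of the members' partners, others were named for their role after their values were seen.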

Additional observations from a re-analysis of the deposited data

Results flagged for a closer look

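In 7 of the 51 members, 1 of the 4 Gli1+ libraries stood far from the other 3 by Dixon's test at the 95% level. The test flags about 1 in 20 groups of samples by chance where values follow a normal distribution. That rate does not hold for genes with absent reads, so the 7 flags cannot be compared with it. Sesn2 and Mlst8 were read in a single Gli1+ library, and such a gene is flagged whatever its level there. Gli1+ replicate 4 was the high library for Slc7a5 (295 CPM, against 56.0, 64.9 and 65.2 CPM), Atp6v1b2 (59.8 CPM, against 18.3, 20.3 and 24.5 CPM), Atp6v1g1 (97.4 CPM, against 75.7, 77.1 and 78.0 CPM) and Sesn2 (13.8 CPM, with no read in the other 3). Gli1+ replicate 3 was high for Mios, a GATOR2 subunit (52.2 CPM, against 16.97, 20.3 and 21.5 CPM), and Atp6v0b (96.0 CPM, against 69.3, 72.7 and 73.1 CPM). Gli1+ replicate 1 was the only Gli1+ library with reads of Mlst8 (15.1 CPM). Gli1+ replicates 3 and 4 also had the highest summed levels of fibro-adipogenic progenitor markers among Gli1+ MuSCs (8095 and 11230 CPM), and the part of those cells in these values was not tested.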

How the results depend on the processing

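With a biological coefficient of variation of 1.76 and 4 against 3 libraries, only large and even changes could pass, and members with absent reads had the widest errors. The table has no gene at an adjusted p under 0.05 in edgeR (at an unadjusted p under 0.05, 170 are higher and 68 lower), 66 with DESeq2 and 0 to 2 with a single library left out (2 without Gli1- replicate 1). Unadjusted counts higher in Gli1+ MuSCs were 434 with DESeq2, 723 with limma-voom, 88 without robust estimation and 57 without Gli1- replicates 2 and 3, and 70 to 1207 with 1 library left out, the highest without Gli1- replicate 1. Counts lower in Gli1+ MuSCs were 19 with filterByExpr, 34 without robust estimation, 9 without Gli1- replicates 2 and 3, and 27 to 58 with 1 library left out.

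For the members at an unadjusted p under 0.05, edgeR gave 0 higher and 2 lower. It was 1 higher with filterByExpr, 1 with DESeq2 and 3 with limma-voom, and 0 to 5 with 1 library left out (5 without Gli1- replicate 1). It was 1 lower with no filter, filterByExpr, DESeq2 or no robust estimation, 0 without Gli1- replicates 2 and 3, and 0 to 3 with 1 library left out (0 without Gli1- replicate 3). DESeq2 called 1 member at an adjusted p under 0.05. Correlations of deviations between Gli1+ and Gli1- libraries of the same replicate number were 0.22, -0.10 and 0.07 for numbers 1, 2 and 3. Those of unlike numbers ran from -0.22 to 0.14. With so few libraries and many genes at 0, these values cannot tell whether the numbers pair the libraries. With the replicate number as a block, 34 genes were higher and 44 lower, and 1 member was higher and 3 were lower, by the same unadjusted threshold.

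The GATOR1 median log2 fold change was 0.09, 3.43 with limma-voom and -0.58 to 9.54 with 1 library left out, and that of Ragulator was 1.20 with limma-voom. The 9.54 came without Gli1- replicate 1 and is the value of Nprl2. That gene had no read in the remaining Gli1- libraries, so that its fitted value depends on the prior count. Without Gli1- replicates 2 and 3, the medians were -0.61 for Ragulator and 0.20 for V1.

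Directions of small changes turned with the setting, in 35 of 357 comparisons of named members. With 1 library left out, log2 fold changes ran from -0.33 to 0.87 for Slc7a5, -0.12 to 0.34 for Rheb, -0.23 to 0.30 for Seh1l, -0.08 to 1.03 for Rraga, -0.45 to 0.83 for Flcn, -0.53 to 0.15 for Atp6v0c, -0.03 to 0.62 for Atp6v1g1, -1.32 to 0.02 for Mtor, -0.02 to 1.30 for Rptor and -0.86 to 0.31 for Slc38a9. Without Gli1- replicates 2 and 3 they were -0.28 for Rheb, -0.24 for Nprl2, -0.54 for Rraga, -0.17 for Flcn, 0.06 for Atp6v0c, -0.30 for Atp6v1g1 and -0.27 for Rptor. The block gave -0.32 for Slc7a5, -0.14 for Rheb and -0.16 for Seh1l. Library totals gave -0.01 for Rheb and -0.13 for Seh1l, limma-voom -0.03 for Rheb, and Seh1l was at -0.02 with relative log expression scaling, -0.10 with the upper quartile and -0.02 with DESeq2. Atp6ap1, Akt1s1, Slc3a2, Castor1, Sesn1, Atp6v1a, Atp6v1e1, Atp6v1f, Atp6v0b and Lamtor5 kept their direction in all 17 alternatives. All of these but Lamtor5 were named for a small p in the same libraries, which favours a kept direction. The alternatives reuse those libraries, so a kept direction is no separate support. Why these values moved was not tested.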
